A study of Danio rerio with 17 samples.

Results

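The transcripts described here are those of 100 well read solute carrier genes of the zebrafish (Danio rerio) oocyte, followed over 5 segments of the cell from its animal to its vegetal end. Of 32520 Ensembl genes in the count tables, 436 had a symbol that starts with slc and a digit, and 100 of these had a mean of at least 20 CPM over the 17 libraries. CPM is a gene's read count scaled to a common library total of reads in genes, and it grows with transcript length, so levels are compared between segments and not between genes. The mean level over all libraries chose the members, so that level is no result, while differences between segments were not used in the choice. At the edge of the rule, slc66a2, slc2a15b and slc9a8 had 20.8, 20.5 and 20.2 CPM, and 1 of the slc5a6 genes, slc7a6os and slc9a2 had 19.4, 18.7 and 17.99 CPM and stayed outside. The other 336 solute carrier genes were under 20 CPM, and 170 of the 436 had no read in any library. All 100 members passed the filter on low counts. For 12 of them the mean falls under 20 CPM when the libraries of 1 segment are left out, and none of these 12 is among the genes that changed below.

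The samples came from 4 oocytes that were embedded, cut with a cryostat and divided into segments named A (the first, animal) to E (the last, vegetal). Segment A was analysed in 4 libraries, B in 3, C in 4, D in 3 and E in 3, and the number of the oocyte is on each label. The labels name no treatment. Not analysed here were the E segment of oocyte 2, the B segment of oocyte 3 and the D segment of oocyte 4. The labels give neither the strain, the age of the fish nor the stage of the oocytes. Each library was made from 5.5 ng of total RNA depleted of ribosomal RNA. A value in CPM is therefore a share of the RNA in a slice, and more of 1 transcript cannot be told apart from less of the others. Whether the 4 oocytes came from 1 female or several is not stated. The main tests held no term for the oocyte, so segments of 1 oocyte were treated as independent. Their p-values thus measure the spread between libraries of these oocytes, estimated in part from all genes.

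Solute carriers are membrane proteins that move ions, metals, amino acids, sugars, nucleosides and other small molecules across the cell surface and the membranes of organelles. They work mostly by facilitated diffusion or by coupling 1 solute to the gradient of another, and unlike pumps most of them split no ATP. Most are grouped into families by sequence, and the family number in the symbol gives a first guide to the substrate. In a fish oocyte the maternal RNA of these carriers is stored for the egg and the early embryo, and the animal end is where the yolk-free cytoplasm gathers and the embryo forms. Roles given below are those known from mammalian proteins unless another source is named. The symbols are written in the lower case used for zebrafish genes. One member, slc4a1ap, carries the prefix as an adaptor protein of a carrier and is not a carrier itself.

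Reads counted in genes ranged from 4054233 to 23672322 per library, and 3 reads corresponded to 0.127 to 0.740 CPM. The 5 libraries of oocyte 1 held almost no spike-in RNA (at most 0.00239% of reads, against 0.185% to 0.802% in the others) and were also the shallowest, so calls of members that are lost without this oocyte are given without it as well. Segment C of oocyte 3 stood apart, with 8535 genes read against 9682 to 11280 in the others. The labelled orientation was checked with known RNAs. All 6 vegetal ones tested (dazl, celf1, vrtn, trim36, sybu and hwa) were higher in E, and the animal ones pou5f3, cpeb1 and ccnb1 were lower. Of 12 oocyte marker genes 11 were found and all 11 had reads, gdf9, bmp15, buc and h1m among them in all 17 libraries. Of 13 entries for follicle cell markers 5 had reads, cyp11a1 the most, with summed levels of 131 to 406 CPM in A and 230 to 320 CPM in E, while fshr, star, amh and inha were at 0. Of 8 entries for blood cell markers 1, coro1a, had reads, with at most 16.8 CPM, and the globin genes were at 0. The part of these cells in the results was not tested.

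Most solute carrier RNAs were not found to differ along the axis, while a small number rose or fell steeply. Mean CPM of slc4a2, slc7a6, slc38a7 and slc12a2 in segment E was 7.98-, 11.6-, 9.50- and 2.76-fold that in segment A. Mean CPM in segment A was 5.11-fold that in segment E for slc39a6 and 6.62-fold for slc29a2. A trend over the positions of the 5 segments was also found for slc25a25, which rose towards E, and for slc20a2 and slc6a6, which fell. Thus 9 of the 100 genes were called in at least 1 of 3 tests, and 91 were not called. The share of all genes called in at least 1 of the 3 tests was not computed. The 9 therefore has no background, and shares are given below for each test on its own.

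The ends of the axis were compared with the quasi-likelihood test of edgeR, and a gene was called where its p, adjusted by Benjamini and Hochberg's method over all genes tested, was under 0.05. This test called 4 members higher and 2 lower in E. Over all 12549 genes tested the same rule called 1.91%, with 1.03% higher and 0.885% lower. Calls lay mostly among well read genes, and of the 6780 genes as well read as the members (20 CPM or more) 3.51% were called, with 1.87% higher and 1.64% lower. The test for any difference among the 5 segments called 7 members (background 1.67% of all genes and 3.05% of those with at least 20 CPM). The test for a straight trend from A to E called 5 rising and 4 falling members, where the background was 2.41% of all genes (1.18% rising and 1.24% falling) and 4.25% of those with at least 20 CPM (2.01% and 2.24%). At an unadjusted p under 0.05 the tests gave 13, 9 and 12 of the 100 members and 1010, 888 and 941 of all 12549 genes. Between the ends, 614 of the 6780 genes with at least 20 CPM had such a p. The members called higher were 2 in place of 4 when the A library of oocyte 3, the E library of oocyte 4 or either of these oocytes was left out. Those called lower were 4 with DESeq2 and 1 without oocyte 1, in place of 2. Over all genes DESeq2 called 687 between the ends, in place of 240. Whether the members called higher or lower differ in number from the share among equally well read genes was not tested. No alternative called a member outside these 9.

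**Figure D1:**
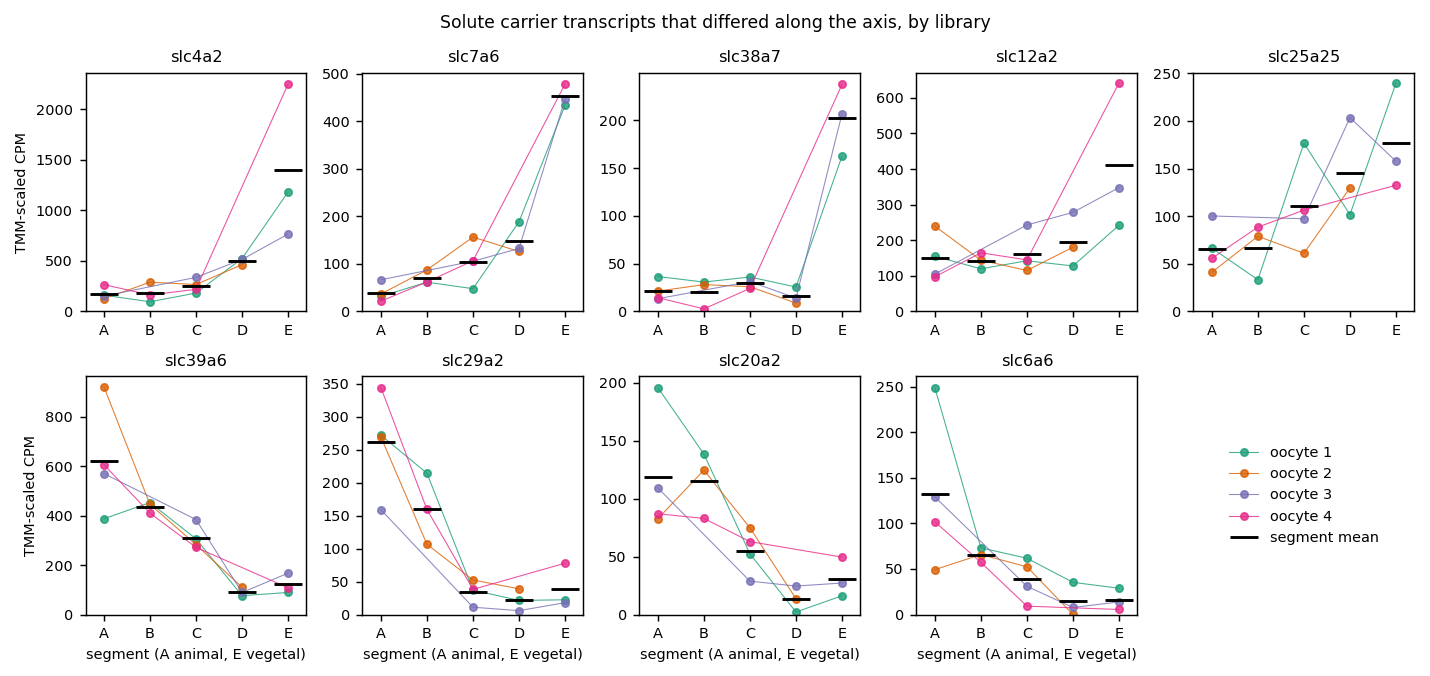
TMM-scaled CPM (linear axis from 0) of the 9 solute carrier genes called in at least 1 test, by segment from A (animal) to E (vegetal). Points are libraries, lines join the libraries of 1 oocyte and black bars are segment means; slc38a7 is at 2.60 to 36.5 CPM in every library of A to D and at 163 to 238 CPM in E, while slc39a6 drops between C and D.

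Among carriers of inorganic ions, slc4a2 (ENSDARG00000052330) had the most reads. It encodes an anion exchanger of the plasma membrane that trades chloride for bicarbonate and so sets pH. Levels of libraries and segment means here and below, and the folds given above, were scaled by edgeR's TMM method (trimmed mean of M values). Means over all libraries were not scaled in this way. The levels of slc4a2 were 161, 125, 151 and 265 CPM in segment A of oocytes 1 to 4. They were 1182, 766 and 2251 CPM in segment E of oocytes 1, 3 and 4. The groups did not overlap, and E was above A in all 3 oocytes that had both ends. In between, they were 94.7, 289 and 163 CPM in B of oocytes 1, 2 and 4 and 181, 266, 337 and 218 CPM in C. Segment means went from 175 ± 61.3 CPM (SD, n = 4) in A through 182, 250.4 and 500.005 CPM to 1399.8 ± 766 CPM (n = 3) in E. On the log2 scale E exceeded A by 2.997 ± 0.33 (SE; edgeR adjusted p 1.14e-09). The 3 libraries of D, with 523, 463 and 514 CPM, lay above every library of A, B and C, so the rise began before the last segment. The highest value, 2251 CPM, came from oocyte 4. The call held under all 28 alternatives, without that library too. A second gene of the symbol slc4a2 (ENSDARG00000028173) was read in only 4 libraries, with a mean of 5.49 CPM.

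The sodium-potassium-chloride cotransporter slc12a2 (ENSDARG00000104573), which brings chloride into cells and helps set their volume, also rose. In segment A its levels were 155, 239, 105 and 97.1 CPM, and in E they were 242, 348 and 642 CPM. The groups came within a few CPM of each other, since segment A of oocyte 2 almost reached the lowest library of E, but E was higher in 3 of 3 oocytes. The libraries of B held 119.5, 144 and 165 CPM, those of C 142, 115, 243 and 145 CPM and those of D 128, 180.2 and 278 CPM. From A to D the means lay between 143 and 195 CPM, and the mean of E was 411 ± 207 CPM. On the log2 scale the rise was 1.46 ± 0.38 (edgeR adjusted p 0.0185). Segment E of oocyte 4 carried much of this, and without it the edgeR adjusted p was 0.551 for the ends and 0.295 for the trend. The difference of the ends was also not called without segment A of oocyte 3 (0.105) or of oocyte 4 (0.0888), without oocyte 3 (0.0729) or without oocyte 4 (0.873). The joint test lost it without segment A of oocyte 3 (0.0613), segment E of oocyte 4 (0.690) or oocyte 4 (0.862), and the trend test without oocyte 3 (0.118) or 4 (0.585). No reads were counted for its near relative slc12a2l.

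The phosphate importer slc20a2 (ENSDARG00000060796), which carries phosphate into the cell together with sodium, fell from A to E. Its levels were 196, 82.9, 109 and 87.05 CPM in A and 139, 125 and 82.98 CPM in B of oocytes 1, 2 and 4. They were 2.16, 13.6 and 24.6 CPM in D of oocytes 1, 2 and 3, and 16.2, 27.2 and 49.6 CPM in E. Segment C lay between with 52.4, 74.9, 28.8 and 63.01 CPM. All libraries of A and B were thus above all libraries of D and E. The edgeR adjusted p was 0.0274 for any difference among segments and 0.0119 for the trend, a slope of -0.63 ± 0.16 log2 units per segment. The gene hsd17b3, which overlaps the locus on GRCz12tu, had reads in 1 library. The ends alone were not called, at -1.94 ± 0.71 on the log2 scale and an edgeR adjusted p of 0.289. Oocyte 1 held both the highest level in A and the lowest in D. Without it the edgeR adjusted p was 0.367 for the trend and 1 in the joint test. Without its segment A alone these were 0.0724 and 0.149. The joint test also lost the gene without segment B (0.0614) or D (0.124) of oocyte 1, segment A of oocyte 3 (0.0626) or oocyte 2 (0.0823). With the authors' factors the trend just missed the threshold (0.05004). DESeq2 called the ends with an adjusted p of 0.0300.

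The relatives slc20a1 and slc4a7 were not called. The former transports phosphate as slc20a2 does and was picked after its values had been seen. Mean levels of slc20a1 (ENSDARG00000010641) were 170.2 ± 55.3 CPM in A against 114 ± 46.4 CPM in E, a log2 difference of -0.58 ± 0.45 (edgeR adjusted p 0.871). The sodium bicarbonate cotransporter slc4a7 (ENSDARG00000073952) had 234 ± 84.1 CPM in A against 181 ± 85.2 CPM in E, with a 95% interval of the log2 fold change from -1.20 to 0.46. Neither passed any of the 3 tests, and the difference between the relatives was not tested. Of the 18 members in the ion families, 9 had a log2 fold change above 0 and 9 below, and the median was 0.063. Calls numbered 2 higher and 0 lower between the ends and 2 rising and 1 falling for the trend. Of all genes with at least 20 CPM, 1.87% were called higher, 1.64% lower, 2.01% rising and 2.24% falling. Calls in this and the other role groups are to be read beside these shares, and a difference from them was not tested.

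Among the amino acid carriers, slc7a6 and slc38a7 rose and slc6a6 fell. The product of slc7a6 (ENSDARG00000054423) exchanges cationic for neutral amino acids at the plasma membrane. Its levels were 31.5, 36.5, 66.4 and 21.4 CPM in A against 433, 446 and 478 CPM in E. The libraries of E lay close together, and all of them were far above the highest of A. Segment B had 61.4, 87.2 and 61.7 CPM, C had 47.6, 156, 105 and 106 CPM and D had 188, 126 and 132 CPM. The means increased at every step, with 38.9, 70.1, 104, 149 and 452 CPM from A to E. Between the ends the log2 fold change was 3.54 ± 0.43 (edgeR adjusted p 1.80e-08), E being higher in 3 of 3 oocytes, and it was called under all 28 alternatives. In mammals this carrier works only when bound to the heavy chain encoded by slc3a2. Both genes of that kind were hardly read or not at all, slc3a2 (ENSDARG00000037012) with 0 reads and slc3a2a (ENSDARG00000036427) with a mean of 3.32 CPM and reads in 6 libraries. Reads with several alignments were not counted, so a low count is no proof of absence.

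The product of slc38a7 (ENSDARG00000012002) exports glutamine from lysosomes. Its levels were 25.5, 8.63 and 13.9 CPM in segment D of oocytes 1, 2 and 3 and 36.5, 21.2, 13.2 and 14.3 CPM in A. In B they were 30.7, 27.99 and 2.60 CPM and in C 36.02, 25.8, 31.2 and 23.998 CPM. In E they were 163, 207 and 238 CPM. No library of A to D exceeded 36.5 CPM, and the mean of E was 12.6-fold that of D. Segment E held 69.9% of the sum of the 5 segment means, the highest share of any member in any segment. Between the ends the log2 fold change was 3.25 ± 0.81 (edgeR adjusted p 0.0130). In the joint test the edgeR adjusted p was 0.00120. The calls depended on single libraries. Without segment E of oocyte 4 the edgeR adjusted p was 0.163 for the ends, 0.127 in the joint test and 0.0681 for the trend, and without oocyte 4 it was 0.253, 0.136 and 0.136. The ends were also not called without segment E (0.101) or A (0.0591) of oocyte 3 or without that oocyte (0.134), although the log2 fold change stayed at 2.97 or more under every alternative. RefSeq places a non-coding RNA across this locus in assembly GRCz12tu, and whether its reads enter the count cannot be told.

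The taurine transporter slc6a6 (ENSDARG00000098438) showed the opposite gradient. Taurine serves many cells as an osmolyte. Levels were 249, 49.2, 129 and 102 CPM in A against 28.8, 13.9 and 5.54 CPM in E. They were 73.2, 65.8 and 57.2 CPM in B, 61.7, 52.4, 30.97 and 9.21 CPM in C and 35.3, 0.0477 and 7.76 CPM in D. A was above E in 3 of 3 oocytes and the groups did not overlap, but the libraries of A spread over a wide range. The trend was called, with a slope of -0.82 ± 0.20 log2 units per segment and an edgeR adjusted p of 0.00909. The difference of the ends, -3.04 ± 0.99 on the log2 scale, was not called (edgeR adjusted p 0.144). With the oocyte as a block the log2 difference was -3.35 and the adjusted p became 0.0149, and the joint test then gave 0.00157 in place of 0.158. The trend was lost without the A library of oocyte 1 (0.121), without oocyte 1 (0.0979) or without oocyte 3 (0.0726). On the other side, the ends were called without segment D of oocyte 2 (0.0282) or oocyte 2 (0.0130), with DESeq2 (0.0269) and with no filter on low counts (0.0492). The joint test called it with no filter (0.0153), without segment D (0.0124) or E (0.0407) of oocyte 1, without segment B of oocyte 2 (0.0417) or of oocyte 4 (0.0400), and without oocyte 2 (0.0199). A second gene of that symbol (ENSDARG00000012534) had 0 reads.

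The amino acid carrier with the most reads was slc1a5 (ENSDARG00000099186), an exchanger of glutamine and other neutral amino acids. Its means were 166 ± 34.7, 189 ± 13.2, 137 ± 41.2, 178 ± 53.2 and 204 ± 72.7 CPM from A to E. No test called the gene, and the 95% interval of the log2 fold change of the ends ran from -0.45 to 1.05. Of the 17 amino acid carriers, 13 had a log2 fold change above 0, with a median of 0.59. The median was 0.13 over all 100 members, 0.00884 over the 6780 genes of at least 20 CPM and 0.000785 over all genes tested. Log2 fold changes above 0 were found for 3430 of those 6780 genes. They were also found for 13 of 18 vacuolar proton pump subunits and 4 of 5 vesicular and lysosomal carriers, against 2 of 8 members of the sugar families. Calls among the amino acid carriers numbered 2 higher and 0 lower between the ends, and 2 rising and 1 falling for the trend. The shares among genes with at least 20 CPM were 1.87% higher, 1.64% lower, 2.01% rising and 2.24% falling. Signs of small differences depend on the scaling, since the authors' factors moved the median of all genes to 0.22 and put 65 of the 100 members above 0 in place of 54. The medians of role groups here and below are therefore to be read against the median of all genes, and with those factors that of the mitochondrial carriers was 0.13 in place of a value below 0.

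The metal carriers were led by slc39a6 (ENSDARG00000068143), a zinc importer of the cell surface. In mouse oocytes this importer and its relative slc39a10 supply the zinc needed for maturation. Levels of slc39a6 were 388, 922, 571 and 607 CPM in A of oocytes 1 to 4 and 306, 283, 385 and 272 CPM in C. In B of oocytes 1, 2 and 4 they were 453, 446 and 411 CPM. In D of oocytes 1, 2 and 3 they were 76.4, 111 and 89.3 CPM, and in E of oocytes 1, 3 and 4 89.4, 167 and 108 CPM. Every library of A, B and C was above every library of D and E, and the largest step lay between C and D, where the means differed 3.38-fold. The means of D and E, 92.1 ± 17.3 and 122 ± 40.7 CPM, differed by less than the SD of E. Between the ends the log2 fold change was -2.35 ± 0.33 (edgeR adjusted p 5.25e-07), and that of the joint test was 1.67e-09. All 3 oocytes with both ends had more in A, and each of the 3 tests called the gene under all 28 alternatives. On GRCz12tu the gene tmeff1a and a non-coding RNA overlap this locus, and tmeff1a had 0 reads.

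Levels of slc39a10 (ENSDARG00000005823), picked after its values had been seen, were 44.04, 118, 51.8 and 44.4 CPM in A against 145, 98.3 and 81.7 CPM in E. E was above A in 3 of 3 oocytes with both ends, and the groups overlapped through segment A of oocyte 2, whose E segment was not analysed here. The log2 fold change, 0.74 ± 0.75, was not called (edgeR adjusted p 1). Its 95% interval, -0.76 to 2.25, includes no difference, a rise and a smaller fall. Of 11 metal carriers 7 had a log2 fold change above 0, with a median of 0.23, and slc39a6 was the 1 gene called, lower in E. Among all genes with at least 20 CPM, 1.64% were called lower in E.

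Only slc29a1 and slc29a2 represented the nucleoside carriers among the members. Both encode equilibrative transporters, which let nucleosides and, for slc29a2, nucleobases cross the membrane down their gradient. Levels of slc29a2 (ENSDARG00000001767) were 272, 269, 159 and 344 CPM in A and 214, 107 and 159 CPM in B of oocytes 1, 2 and 4. In C they were 37.2, 52.4, 11.1 and 38.1 CPM, in D 21.4, 39.04 and 5.88 CPM and in E 22.4, 18.1 and 77.9 CPM. No library of A or B overlapped with C, D or E. The mean of B was 4.61-fold that of C, whereas the largest step of slc39a6 came 1 segment later. Segment A held 50.5% of the sum of segment means. The edgeR adjusted p was 0.00297 for the ends, with a log2 fold change of -2.72 ± 0.60 and A higher in 3 of 3 oocytes, and 2.49e-06 in the joint test. Without oocyte 1 the ends had an edgeR adjusted p of 0.0972, with a log2 fold change of -2.42, while the joint and trend tests called the gene under all 28 alternatives. The genes cfb and si:dkeyp-50d11.2 overlap the locus on GRCz12tu, and cfb had 0 reads.

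By contrast slc29a1 (ENSDARG00000101289) had 177 ± 67.6, 193 ± 44.7, 225 ± 56.2, 196 ± 79.05 and 146 ± 50.5 CPM from A to E. No pattern from A to E stood out from the spread between oocytes, and the ends differed by -0.27 ± 0.38 on the log2 scale (edgeR adjusted p 1, 95% interval from -1.03 to 0.48). The interval for slc29a2 ran from -3.93 to -1.52. The difference between the pair was not tested. A second gene with the symbol slc29a1 had 0 reads.

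**Figure D2:**
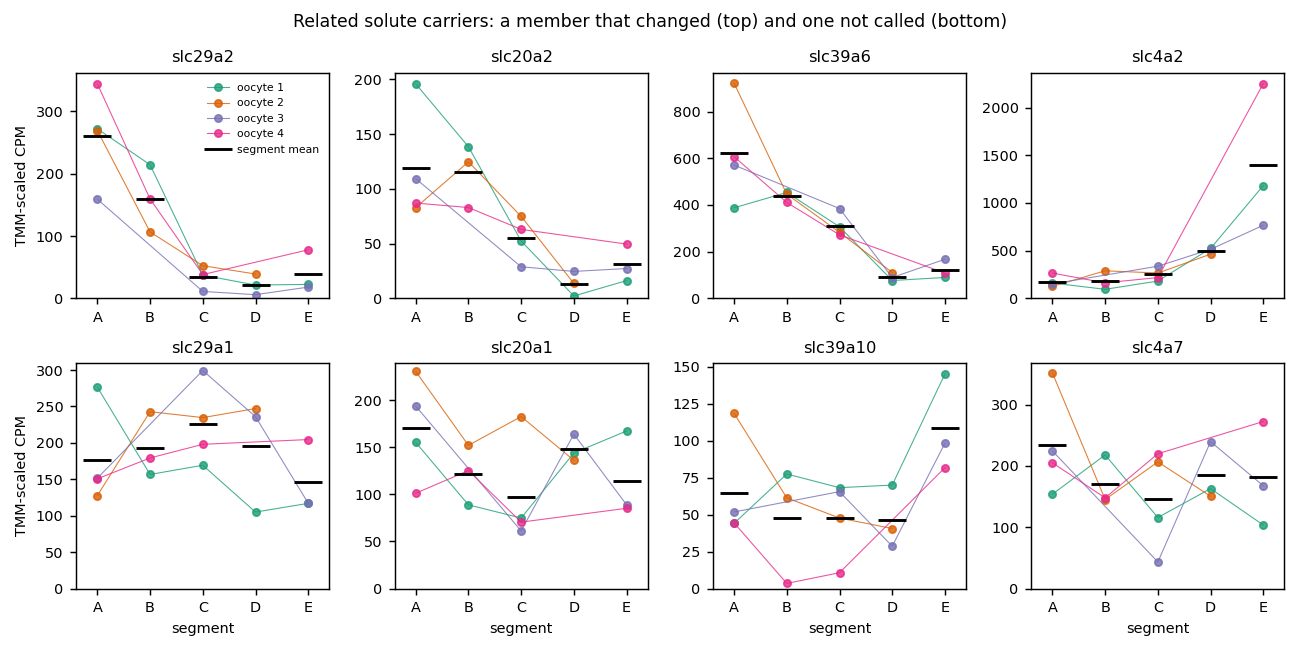
TMM-scaled CPM (linear axes from 0, a scale of its own in each panel) by segment for 4 genes that changed (top) and a relative of each that was not called (bottom); points are libraries, lines join libraries of 1 oocyte and bars are segment means. The levels of slc29a2 fall from 159 to 344 CPM in A to 18.1 to 77.9 CPM in E, while slc29a1 shows no such fall; the difference between relatives was not tested.

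The slc25 family, mostly carriers of the inner mitochondrial membrane, includes the member with the highest count. The ADP/ATP translocase slc25a5 (ENSDARG00000092553), which brings ADP in and ATP out, had 1078 ± 145, 849 ± 164, 791 ± 187, 874 ± 52.8 and 1015 ± 199 CPM from A to E. Its 17 libraries lay between 661 and 1238 CPM, the narrowest relative spread within segments of any member, and the log2 fold change of the ends was -0.087 ± 0.24 with a 95% interval from -0.57 to 0.39. The aspartate-glutamate carrier slc25a12 (ENSDARG00000102362) had 340.5 ± 104 CPM in A against 339.8 ± 12.9 CPM in E (interval from -0.58 to 0.58). The phosphate carrier slc25a3 (ENSDARG00000025566) had 288 ± 108 and 315 ± 49.04 CPM (interval from -0.49 to 0.74). For these 3 genes, and for no other member without a call, the interval stayed within 1 log2 unit of 0 on both sides. None of the 3 was called in any test, and the sign of these changes depended on the scaling for slc25a5 and slc25a12. Genes of the ADP/ATP translocases have near-identical copies, and reads that fit several copies were not counted.

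The glutathione importer slc25a39 (ENSDARG00000007449) varied more between oocytes, with 335, 295, 345 and 98.9 CPM in A against 234, 160.4 and 149 CPM in E. Oocyte 4 was the lowest in each of the 4 segments in which it was measured. The log2 fold change, -0.57 ± 0.39, was not called (edgeR adjusted p 0.797). The 1 mitochondrial carrier called was slc25a25 (ENSDARG00000010572), a calcium-regulated exchanger of ATP-magnesium for phosphate. Its levels were 66.4, 41.04, 100.2 and 55.7 CPM in A against 239.8, 158 and 132 CPM in E, which did not overlap. Between them B held 33.2, 78.8 and 88.5 CPM, C 177, 60.99, 97.3 and 106 CPM and D 102, 129.7 and 204 CPM. The slope of 0.39 ± 0.10 log2 units per segment had an edgeR adjusted p of 0.0266, whereas the ends gave 0.186 (1.42 ± 0.48 on the log2 scale, higher in 3 of 3 oocytes). With the oocyte as a block the trend was not called (0.0600). It was also lost without segment E of oocyte 1 (0.155), segment A of oocyte 2 (0.0792), segment D of oocyte 3 (0.0661) or segment A of oocyte 4 (0.0610), and without oocyte 1 (0.310), 2 (0.120), 3 (0.0703) or 4 (0.0815). DESeq2 called its ends (0.0283). A second gene of this symbol had a mean of 13.9 CPM. On GRCz12tu the gene acaa2 overlaps slc25a25a, and which Ensembl gene that copy is was not determined. Reads of acaa2 were counted in 16 libraries, with means of 26.9 CPM in A and 30.9 CPM in E. Their part in the count was not tested. Of 17 mitochondrial carriers 6 had a log2 fold change above 0 and 11 below, with a median of -0.087.

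In the remaining families no member was called in any of the 3 tests. The 9 members of the slc35 family, most of which carry nucleotide sugars into the Golgi and the endoplasmic reticulum, had a median log2 fold change of 0.21. Their most heavily read gene was slc35c2 (ENSDARG00000037517), a Golgi protein tied to fucose addition, whose mean was 245 ± 51.2 CPM for segment A, 251 ± 69.7 CPM for B and 184 ± 51.4 CPM for E. The lactate exporter slc16a3 (ENSDARG00000045051) led 5 carriers of carboxylates and organic ions, with a mean of 146 ± 52.6 CPM in A against 195 ± 57.9 CPM in E, a difference smaller than the SD of either. Its partner basigin (bsg), which brings such carriers to the surface, had a mean of 335 CPM and differed by 0.98 between the ends on the log2 scale (edgeR adjusted p 0.104).

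The choline transporter slc44a1a (ENSDARG00000015946) led 8 carriers of vitamins, lipids and choline, with 121 ± 53.3 CPM in A against 136 ± 38.8 CPM in E. The endoplasmic reticulum carrier slc37a2 (ENSDARG00000023394), which exchanges glucose 6-phosphate for phosphate, led 8 members of the sugar families, with 107 ± 51.3 CPM in A against 85.95 ± 14.3 CPM in E. In that group 6 of 8 log2 fold changes were below 0 (median -0.38). One of its members, slc5a6, is known as a vitamin transporter in spite of its family. The lysosomal carrier slc49a4 (ENSDARG00000009783) led 5 vesicular and lysosomal carriers. Its levels were 58.5, 56.4, 26.4 and 38.6 CPM in A against 189.8, 63.9 and 148 CPM in E and did not overlap, yet the log2 fold change, 1.57 ± 0.58, was not called (edgeR adjusted p 0.297).

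**Figure D3:**
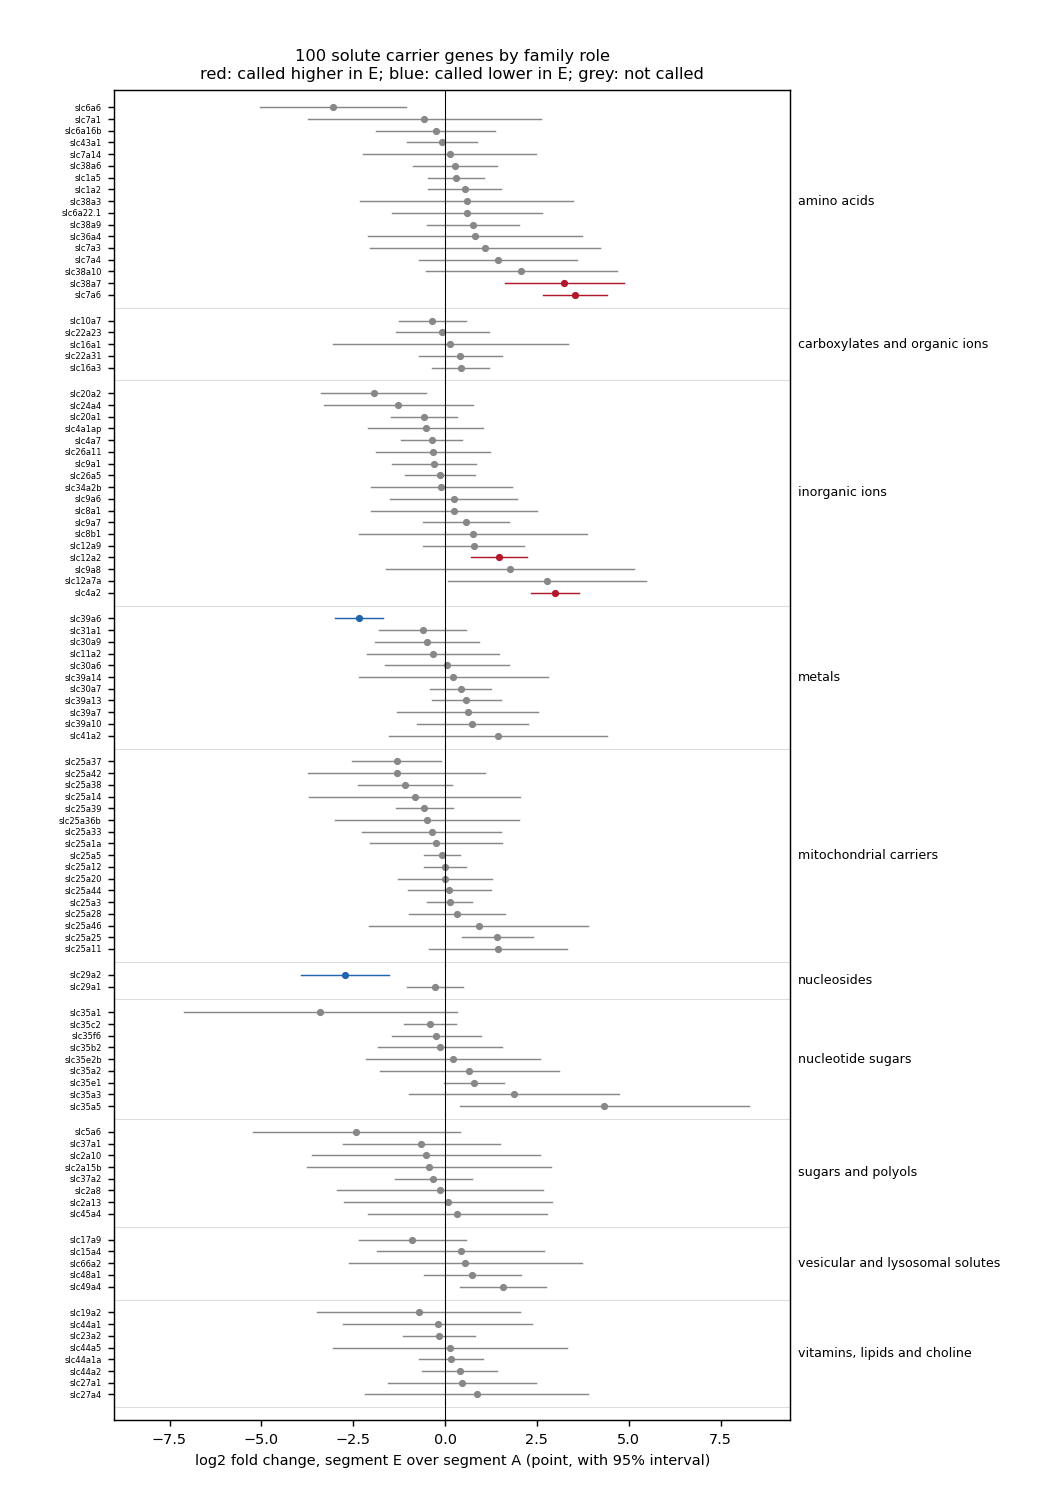
Log2 fold change of segment E (n = 3) over segment A (n = 4) for the 100 solute carrier genes, grouped by the substrate of their family. The 95% intervals are approximate and were derived from the F statistics of the edgeR fit. The 4 red genes (slc4a2, slc7a6, slc38a7 and slc12a2) were called higher in E and the 2 blue ones (slc39a6 and slc29a2) lower; the other 94 are grey, and many of their intervals are several log2 units wide.

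The ends were also compared by the ranges of their libraries alone. The 3 libraries of E were all above the 4 of A for 13 members and all below for 6. Of the genes with at least 20 CPM, 6.11% had E above A in this way and 5.74% had A above E (11.8% in all), and of all tested genes 4.61% and 3.82% (8.42% in all). The 6 members with A above E were close to these shares, and the 9 called genes are among the 19. The other 10, named because of these values, were slc35e1, slc49a4, slc48a1, slc25a11, slc7a4, slc38a10, slc12a7a and slc35a5 with E above A, and slc25a37 and slc35a1 with A above E. Their edgeR adjusted p ranged from 0.297 for slc49a4 to 0.962 for slc48a1. The segment with the highest mean was E for 34 members, A for 20, D for 18, B for 17 and C for 11. Of the 6780 tested genes of 20 CPM or more, 23.7% were highest in E, 19.4% in A, 20.3% in D, 19.8% in B and 16.8% in C. Without the libraries of E the mean of 5 members falls under 20 CPM, and without those of A that of 4 does. These members passed the rule only through that end, and they were kept in the counts of this paragraph.

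Together the 100 genes took 0.767% to 1.18% of the reads in genes. From A to E their summed share was 0.914 ± 0.0339% (SD), 0.863 ± 0.0450%, 0.799 ± 0.0286%, 0.864 ± 0.0521% and 1.05 ± 0.114%. All libraries of C were below all libraries of A, and all libraries of E were above all of the others. Without the 9 called genes the sum was 0.756 ± 0.0438% in A, 0.688 ± 0.0356% in C and 0.769 ± 0.0208% in E, and the ranges of A and E overlapped. These sums were not tested, since the 9 genes were set aside for their difference.

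**Figure D4:**
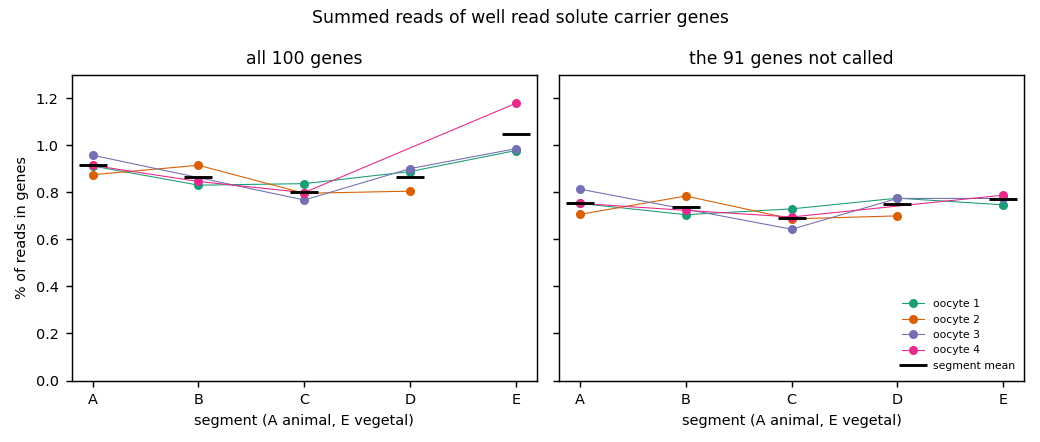
Reads of well read solute carrier genes as a percentage of all reads in genes (axis from 0), for all 100 genes (left) and for the 91 not called in any test (right), by segment and oocyte; lines join libraries of 1 oocyte and bars are segment means. On the left the 3 libraries of E (0.977% to 1.18%) lie above all others, and on the right they lie between 0.747% and 0.787%.

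How much could be seen depended on the level. Within segments, the coefficient of variation between libraries had a median of 0.398 for the 34 members with 81.1 CPM or more, 0.520 for the 33 between 35.95 and 79.9 CPM and 0.815 for the 33 up to 34.3 CPM. The median SE of the log2 fold change of the ends was 0.45, 0.81 and 1.43 in these groups, and 6, 3 and 0 members were called. The shares of all genes called at these levels were not computed, so the 6, 3 and 0 calls have no background. For 54 of the 91 members without a call the 95% interval reached 2 log2 units or more, so a difference of that size lay within the interval of these genes. Among the 33 lowest, 25 had 3 reads or fewer in at least 1 library, against 5 of the middle group and 0 of the highest. For 30 members 1 library held 500 reads or more and another at most 3.

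The clearest such case was slc35a5 (ENSDARG00000000001), a Golgi protein of the nucleotide sugar family, which had at most 3 reads in 5 libraries and was picked after its values had been seen. Its levels were 36.8, 0 and 39.5 CPM in segment B of oocytes 1, 2 and 4 and 63.4, 28.3, 0 and 33.9 CPM in segment C of oocytes 1 to 4. Segment E held 17.5, 52.7 and 64.4 CPM. Libraries of 1 segment thus ranged from no reads to 63.4 CPM. The log2 fold change of the ends, 4.34 ± 1.96, had an edgeR adjusted p of 0.580. In segment C of oocyte 3, the library with the fewest genes read, 11 members had at most 3 reads, against 0 to 6 in the other libraries. Leaving this library out changed none of the counts of called members.

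**Figure D5:**
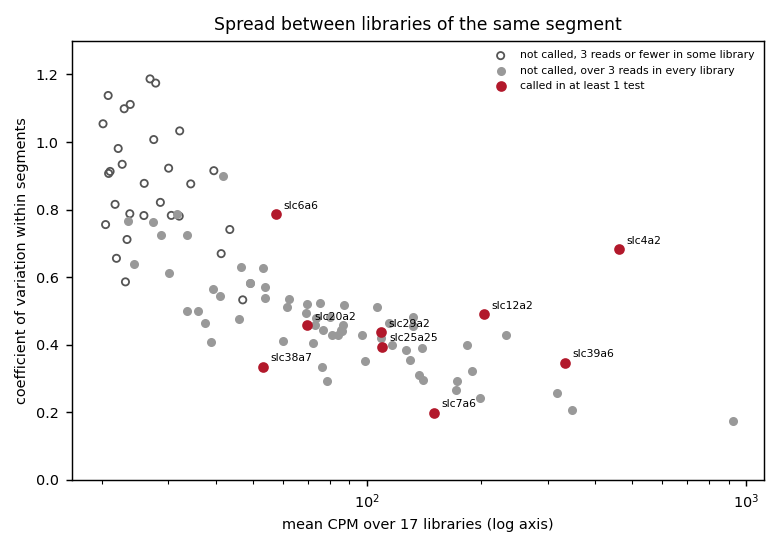
Coefficient of variation between libraries of the same segment against the mean CPM (log axis) for the 100 solute carrier genes. Open circles are genes without a call that had 3 reads or fewer in some library, with means of up to 47.1 CPM. The called slc6a6, at 57.7 CPM, also had such a library and is drawn in red. The 9 called genes (red) have means of 53.3 to 462 CPM, and the coefficient is lowest for slc25a5, at 0.173.

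Other genes of membrane transport were counted from a list of ion pumps, ABC transporters, aquaporins, slco carriers, the mitochondrial pyruvate carrier, the phosphate exporter xpr1 and partner proteins. The list matched 137 entries, of which 70 were tested, and none of 14 aquaporin entries passed the filter. Between the ends 0 were called higher and 3 lower in E, beside 1.03% and 0.885% of all genes. For the direction with 0 calls, 9 of the 70 had an unadjusted p under 0.05 in either direction. The lower ones were atp2a2, a calcium pump of the endoplasmic reticulum, with 698 ± 86.6 CPM in A and 335 ± 123 CPM in E, atp2c1, a calcium and manganese pump of the Golgi, with 226 ± 47.4 CPM in A and 66.2 ± 52.2 CPM in E, and abca3, a lipid transporter, with 584 ± 128 CPM in A and 65.7 ± 23.1 CPM in E. Their edgeR adjusted p-values were 0.0329, 0.0385 and 2.90e-08. Of 18 tested subunits of the vacuolar proton pump and 2 of the sodium-potassium pump none was called. Of the solute carriers under 20 CPM, 108 passed the filter and 0 were called in any of the 3 tests. Between the ends 9 of these 108 had an unadjusted p under 0.05, beside 1010 of all 12549 genes tested. Few genes of any kind were called under 20 CPM. Of the 240 genes called between the ends, 238 had a mean of at least 20 CPM. So had 207 of the 209 called jointly and 288 of the 303 called for the trend. DESeq2 called 3 of the other transport genes higher and 3 lower in E. Of the solute carriers under 20 CPM it called 2 higher and 4 lower, with 0 in the joint test and 5 for the trend. DESeq2 also called more genes of any kind. Of the 12549 that passed the filter it called 687 between the ends, 329 jointly and 495 for the trend.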

How the data were processed

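RNA of 17 slices of 4 zebrafish oocytes was sequenced, and for each library the authors deposited raw read counts of 32520 Ensembl genes, 92 spike-in entries and 5 summary entries. Per the submitters' processing notes, Trimmomatic, STAR 2.5.3a, HTSeq, DESeq2 and the build GRCz11 were used. The annotation release and the use of strand are not given in the sources used here, so counts of overlapping and antisense genes are uncertain. Entries for reads outside genes (4.60% to 6.10%), in several genes (0.502% to 0.633%) or with several alignments (6.88% to 14.2%) were left out of library sizes. The deposited table of normalized signal holds the authors' counts divided by 1 factor per library. Multiplying back gave whole reads, equal to the counts within 0.01, for 100% of values, and the table served only for those factors.

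Symbols came from a table that matched 29201 identifiers, were compared regardless of case and are printed in lower case. A RefSeq table of assembly GRCz12tu served only to find genes that overlap a member. No sequence or position is printed. Genes were filtered with filterByExpr (minimum count 10, grouped by segment), and 12549 were fitted in edgeR 4.0.16 (R 4.3.3) with TMM scaling, 1 coefficient per segment and all libraries sharing 1 estimate of the spread. The 2-sided quasi-likelihood tests compared E with A, the 5 segments jointly and a slope over positions 1 to 5. Each was adjusted by the Benjamini-Hochberg method over all genes tested. The slope came from a separate fit, with position as a number in place of the segment coefficients. That fit had its own estimate of the spread, which includes departures from a straight line. The same steps were run on simulated counts with known changes, linear over the segments and placed in well read genes only. These counts were drawn independently for each library, without an effect of the oocyte. They therefore cannot show how the steps behave where libraries of 1 oocyte are related or counts drop to a few reads. Segments with the same number were cut from the same oocyte, per the labels. The deviations of 28 pairs of libraries of 1 oocyte from their segment means had a median correlation of 0.0712 over 2668 genes, against -0.0355 for 87 pairs that shared neither oocyte nor segment.

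Genes were named where a test called them, where they were among the 10 members with the highest mean, or where they had the highest mean in 1 of 10 role groups set by family number. Members and lists were chosen with earlier results of these data known. The alternatives were 3 other scalings, no filter or a minimum count of 50, DESeq2 1.42.0, the oocyte as a block, and leaving out each library or oocyte. Depth of 4054233 to 23672322 reads limits precision, and intervals cover the fitted spread.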

Additional observations from a re-analysis of the deposited data

Results flagged for a closer look

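In segments of 4 libraries, single values that stood far from the other 3 by Dixon's criterion were searched for in 46 groups and found in 4, where chance gives about 2.3 (1 in 20). The ADP/ATP translocase slc25a5 was at 1068 CPM in segment C of oocyte 4, and the other libraries of C held 661 to 729 CPM. The aspartate-glutamate carrier slc25a12 reached 495 CPM in segment A of oocyte 2, above 279.5 to 305 CPM in the other oocytes. The nucleoside transporter slc29a1 had 277 CPM in segment A of oocyte 1, while oocytes 2 to 4 had 128 to 152 CPM. None of these 3 genes was called in any test. Finally, 11 of the 100 solute carrier genes had 3 reads or fewer in segment C of oocyte 3, where the other libraries of C had 2 to 3 such genes, and that library also had the fewest genes read (8535). No explanation of these values was tested.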

How the results depend on the processing

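Of 224 counts of called genes under the alternatives, 207 stayed within 1.5 times the value reported. The counts of solute carriers higher in E, called in the joint test, rising and falling did so under every scaling, filter and tool tried. DESeq2 called 4 solute carriers lower in E in place of 2, and over all genes 687 between the ends, 329 jointly and 495 for the trend, in place of 240, 209 and 303. The authors' factors gave 462 genes in the joint test, and the trend test with no filter gave 1096. Leaving out libraries or oocytes gave 2 to 4 solute carriers higher in E, 1 to 3 lower, 5 to 8 in the joint test, 2 to 5 rising and 2 to 4 falling, with 152 to 258 genes of all called between the ends. Without oocyte 1, the one with little spike-in RNA, these were 4, 1, 6, 4 and 2. With the oocyte as a replicate block they were 4, 3, 8, 4 and 4, and the block changed no call of a named gene other than those given for slc6a6 and slc25a25. Calls of slc4a2, slc7a6 and slc39a6 held in all 28 alternatives. Sign changes of the log2 fold change of the ends were seen among the named genes only in 7 without a call. That of slc25a12 was 0.00832 with RLE factors, 0.22 with the authors' factors, 0.040 with no filter, 0.018 at a minimum count of 50, 0.00813 with DESeq2 and 0.15 with the block, and that of slc25a5 was 0.13 with the authors' factors. With libraries or oocytes left out it ranged from -0.23 to 0.041 for slc25a5, -0.10 to 0.25 for slc25a12, -0.098 to 0.37 for slc25a3, -0.66 to 0.17 for slc29a1, -0.016 to 0.50 for slc1a5, -0.24 to 0.57 for slc44a1a and -0.53 to 0.16 for slc37a2. Without oocyte 1 it was -0.065 for slc25a3, 0.17 for slc29a1 and -0.24 for slc44a1a. The cause of these changes was not tested. The number of oocytes, 3 or 4 in a segment, and the spread of low counts limit what could be seen.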
